A study of Rattus norvegicus with 17 samples.

Results

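The genes described here are 8 genes in 4 pairs that share a locus or lie side by side, taken from the 34322 genes counted in the hippocampus of 17 adolescent Long-Evans rats. The pairs were Ccdc152 with Selenop, Best1 with Fth1, Cers1 with Gdf1, and Asnsd1 with Asdurf. They were chosen by name with the differences between the diet groups already known, so the diet values of these genes are a description. These values are given without p-values of their own, apart from calls and counts under a p limit. The rats were the offspring of dams in 3 diet groups. Dams of the ET group (n = 5 libraries) drank a liquid diet with 6.7% ethanol from gestational day 0 to 20, dams of the PF group (n = 6) were pair-fed the liquid diet without ethanol, and dams of the AD group (n = 6) ate chow freely. All dams ate regular chow from gestational day 20 on. Tissue was taken from male and female offspring at 36 to 38 days of age, from the left hippocampus in most animals and from the right in 4. Each diet group came from 1 litter, so diet and litter cannot be told apart, and p-values measure the spread among litter mates. In whole tissue, fewer cells of a type and less RNA per cell also cannot be told apart.

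Genes that lie close together can share DNA in several ways. A bicistronic transcript carries the reading frames of both genes on a single RNA, as for Cers1, a ceramide synthase of neurons, with Gdf1, a ligand of the TGF-beta superfamily. The same holds for Asdurf, a small protein read from an upstream reading frame on the RNA of Asnsd1, an asparagine synthetase domain protein. Genes on opposite strands can instead overlap at their ends. Selenop, the selenium transport protein, and Fth1, the ferritin heavy chain that stores iron, are abundant in brain. Their partners are Ccdc152, a coiled-coil protein of unclear function, and Best1, a chloride channel known from the retinal pigment epithelium.

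All 8 genes were found by name in the RefSeq gene list of the rat build GRCr8, and 7 of them had promoter sequences. That build differs from mRatBN7.2, to which the reads were mapped, so it served only to show which genes neighbour each other. There, Cers1 and Gdf1 had the same span on the minus strand of chromosome 16. On the plus strand of chromosome 9, the span of Asdurf and that of Asnsd1 lay one inside the other. Ccdc152 on the minus strand and Selenop on the plus strand of chromosome 2 overlapped at their ends. Best1 and Fth1 on chromosome 1 were adjacent without overlap, and 0 genes lay between them, though Best1 overlapped 1 other listed gene that is not among the genes counted. Cers1 and Gdf1 also overlapped Upf1, Asnsd1 and Asdurf also overlapped Slc40a1, and Ccdc152 also overlapped LOC103691472. In that list Ccdc152 with Selenop and Best1 with Fth1 were thus overlapping or neighbouring rather than nested. Each bicistronic pair had a single promoter window for both genes, identical over 250 bases, and these windows are shown because both genes of the pair are listed as starting there. The window of Cers1 and Gdf1 lies at chr16:19146481-19146730, minus strand, and that of Asnsd1 and Asdurf at chr9:55618549-55618798, plus strand, both in GRCr8 and just before the listed start. Each is printed 5′ to 3′ in lower case, with capitals for the motif found in it.
Cers1 and Gdf1: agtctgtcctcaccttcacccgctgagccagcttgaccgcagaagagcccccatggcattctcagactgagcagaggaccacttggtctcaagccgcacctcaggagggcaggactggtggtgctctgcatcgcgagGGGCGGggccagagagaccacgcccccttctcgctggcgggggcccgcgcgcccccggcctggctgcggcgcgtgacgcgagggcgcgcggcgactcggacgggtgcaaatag
Asnsd1 and Asdurf: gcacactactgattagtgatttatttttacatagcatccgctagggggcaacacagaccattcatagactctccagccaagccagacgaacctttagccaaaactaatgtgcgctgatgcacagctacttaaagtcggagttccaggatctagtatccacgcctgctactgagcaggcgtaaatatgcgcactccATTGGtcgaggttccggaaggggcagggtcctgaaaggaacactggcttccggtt
The motifs searched on both strands were the CCAAT box (CCAAT), the GC box (GGGCGG), the TATA box (TATAAA) and the E-box (CACGTG). The Cers1 and Gdf1 window was 69.6% G and C and held 1 GC box, a motif found in 30.5% of 33469 promoter windows of the same length. The Asnsd1 and Asdurf window was 50% G and C and held 1 CCAAT box, read as ATTGG on the printed strand, a motif found in 34.0% of the windows. A match is a string of letters and not a measured binding site.

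The 17 libraries held 10853947 to 17498392 counted fragments. The values are fragments per gene averaged over 3 technical replicates, so they need not be whole, and a count of 0 was taken to allow up to 3 fragments on this averaged scale, or 1.71e-05% to 2.76e-05% of a library, for counting error only. Levels are given below as normalized counts, which are counts scaled by TMM (trimmed mean of M values) to a common library size. The summed counts of 5 neuron markers were at 44270 or more, and those of 5 dentate and CA neuron markers at 4975 or more, in every library. In ET replicate 2, PF animal 11f6 and AD replicate 4, which the study left out of its final 14, the choroid plexus marker Ttr was at 87591 or more normalized counts, against at most 14552 in the other 14. PF animal 11f6 had the lowest PF values of Ccdc152, Best1 and Fth1, and the separation of PF described below held with and without these 3 libraries. Means are over all 17 libraries unless 14 are named. The summed counts of 4 Y-linked genes went against the sex label in 2 AD libraries, so AD was not used to compare the sexes.

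Ccdc152 was far higher in PF than in both other diets, while its neighbour Selenop was not. In ET, Ccdc152 had 24.3, 24.2, 25.6, 26.2 and 28.3 normalized counts in replicates 1 to 5. In PF it ranged from 261 to 316 with a median of 283 over 6 libraries, and in AD from 16.9 to 25.8 with a median of 22.1. The lowest PF library thus stood far above the highest ET and AD libraries, and ET and AD overlapped. The means were 25.7 ± 1.69 in ET (SD, n = 5), 287 ± 22.4 in PF (SD, n = 6) and 22.1 ± 3.05 in AD (SD, n = 6).

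Selenop was abundant in every library. In ET it had 6854, 6722, 6162, 5952 and 6806 normalized counts. PF ranged from 5080 to 5911 with a median of 5541, and AD from 5506 to 6808 with a median of 6087. All 6 PF libraries lay below all 5 ET libraries, whereas PF and AD overlapped. The means were 6499 ± 413, 5489 ± 326 and 6192 ± 505 in ET, PF and AD (SD). From ET to PF, Ccdc152 was thus higher by 262 normalized counts on average, while Selenop was lower, with a PF minus ET difference of -1011. The summed level of 4 of the 5 listed oligodendrocyte markers (Mbp, Mog, Mag and Cnp) moved in the same direction, at 128149 to 174974 normalized counts in ET, 98436 to 131996 in PF and 113544 to 169210 in AD, with 5 of 6 PF libraries below every ET library. Of the 4 markers, 0 were at 0 in all libraries and 0 were called, and their part in the Selenop values was not tested.

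**Figure D1:**
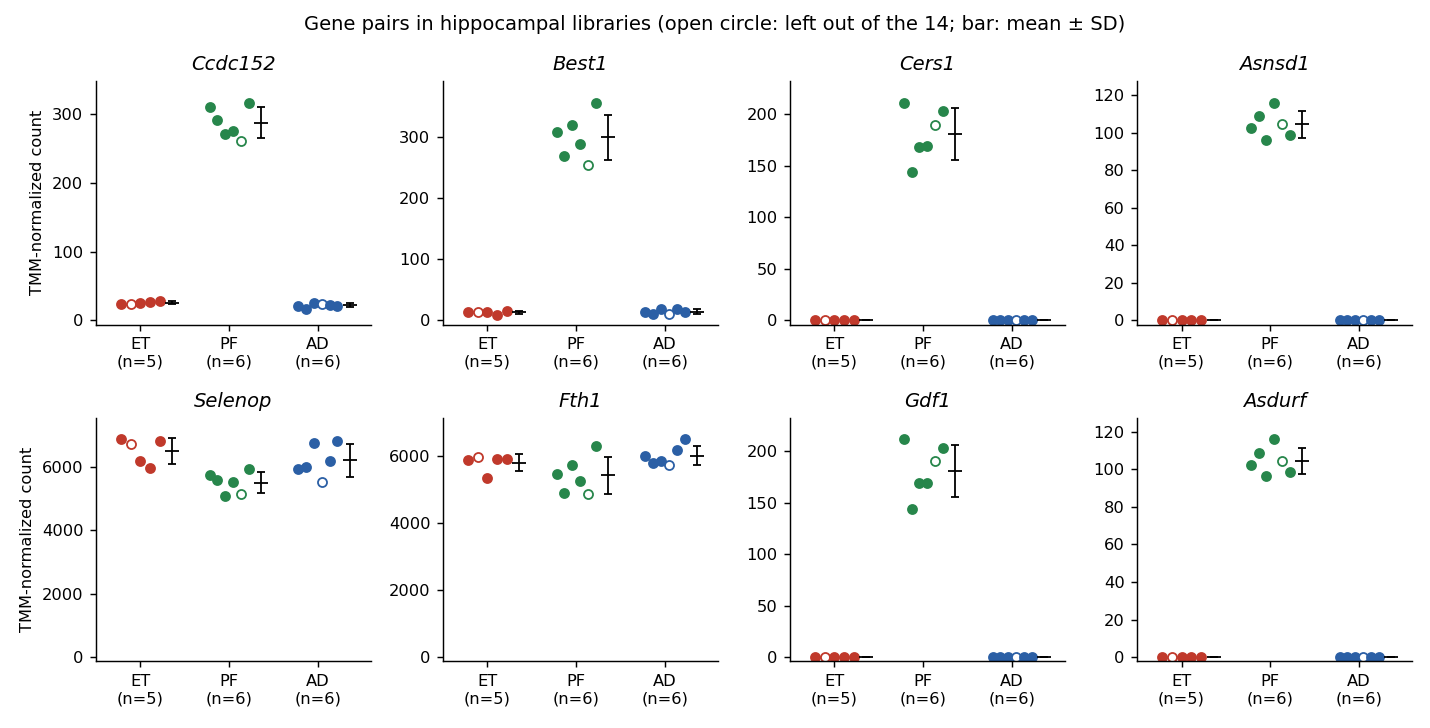
Normalized counts of the 8 genes, 1 point per library, with the weak gene of each pair above and its partner below. The horizontal axis gives the diet group, the vertical axis TMM-normalized counts from 0, open circles the 3 libraries left out of the 14, and bars the mean ± SD. PF stands apart from ET and AD in 6 of the 8 panels, and Selenop and Fth1 are at 4840 or more in all diets.

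The same contrast held for Best1 against Fth1. In ET, Best1 had 14.5, 14.1, 13.1, 8.39 and 15.8 normalized counts. In PF it ranged from 255 to 357 with a median of 299, and in AD from 9.64 to 19.4 with a median of 13.1. Again every PF library stood above every library of the other diets, and ET and AD overlapped. The means were 13.2 ± 2.84 in ET (SD, n = 5), 300.0 ± 36.6 in PF (SD, n = 6) and 14.2 ± 4.24 in AD (SD, n = 6).

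Fth1 did not separate the diets. In ET it had 5864, 5955, 5336, 5911 and 5893 normalized counts. It ranged from 4840 to 6284 in PF, with a median of 5345, and from 5710 to 6477 in AD, with a median of 5906. The means were 5792 ± 257, 5406 ± 544 and 5993 ± 289 (SD), and the 3 ranges overlapped.

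Within each library, the count of the weak gene was set against that of its neighbour, which cancels depth and scaling. These are ratios of fragments and not of levels per length. Ccdc152 counts were 0.397% ± 0.0378 of Selenop counts in ET (SD, n = 5), 5.23% ± 0.165 in PF (SD, n = 6) and 0.359% ± 0.0551 in AD (SD, n = 6). Best1 counts were 0.228% ± 0.0494 of Fth1 counts in ET, 5.54% ± 0.148 in PF and 0.236% ± 0.0693 in AD. The PF ratios ranged from 5.00% to 5.42% in the first pair and from 5.28% to 5.67% in the second, so the ranges of these unrelated pairs overlapped in PF. The highest ratio outside PF was 0.443% in the first pair and 0.333% in the second. Over the 6 PF libraries the ratio had a coefficient of variation of 3.14% in the first pair and 2.67% in the second. Poisson counting of the weak gene alone gives 3.40% and 3.34%. In ET the coefficient was 9.51% for the first pair and 21.7% for the second, where counting alone gives 11.5% and 16.3%, and in AD it was 15.4% and 29.4%, where counting gives 12.4% and 15.9%.

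**Figure D2:**
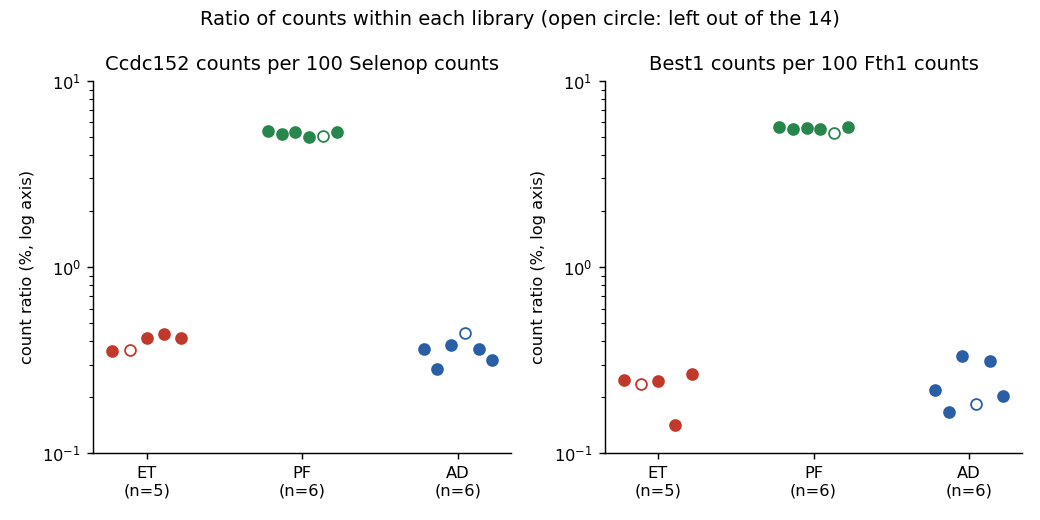
Counts of the weak gene as a percentage of the counts of its neighbour in the same library, on a log axis, by diet group, with Ccdc152 and Selenop on the left and Best1 and Fth1 on the right. The 6 PF libraries lie between 5.00% and 5.67% in both panels, and all ET and AD libraries lie at or below 0.443%.

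Variation among libraries of 1 diet was not used to choose the genes, so the relation of the weak gene to its neighbour was tested there, on log2 normalized counts with a two-sided exact permutation test over all pairings and Benjamini-Hochberg adjustment over 4 relations. In PF (n = 6), Best1 rose with Fth1, with Pearson's r = 0.990 (exact p = 0.00139, adjusted 0.00556) and Spearman's rho = 1 (exact p = 0.00278, adjusted 0.0111). The value 0.00139 is the smallest p that 6 libraries can give. Ccdc152 rose with Selenop in PF, with r = 0.928 (exact p = 0.0139, adjusted 0.0278) and rho = 0.943 (exact p = 0.0167, adjusted 0.0333). Without the 2 libraries farthest from the neighbour's median, r was 0.990 and 0.937 over 4 libraries. With 5 libraries, r of Ccdc152 and Selenop ran from 0.883 to 0.968, and without PF replicate 2 (r = 0.927) or PF replicate 6 (r = 0.883) its exact permutation p was 0.0583. In AD (n = 6), r was 0.332 for Best1 and Fth1 (exact p = 0.540, adjusted 0.720, rho = 0.543 with exact p = 0.297) and 0.164 for Ccdc152 and Selenop (exact p = 0.788, adjusted 0.788, rho = 0.143 with exact p = 0.803). Without the 2 libraries farthest from the median, these were 0.417 and -0.422. The difference between the diets in these correlations was not tested, and the counting error of the weak gene in AD was larger, at 12.4% for Ccdc152 and 15.9% for Best1. In PF both ratios varied no more than counting of the weak gene alone gives, so the PF correlations restate the steady ratios. They are not separate support for a relation between the genes, and the part of the counting settings was not tested. As a description, the pairs were crossed in PF, over the same 6 libraries with shared scaling. This gave r = 0.569 for Ccdc152 with Fth1 and r = 0.482 for Best1 with Selenop. It gave r = 0.641 for Ccdc152 with Best1 and r = 0.423 for Selenop with Fth1. In AD these were -0.00690, 0.586, 0.611 and 0.624.

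**Figure D3:**
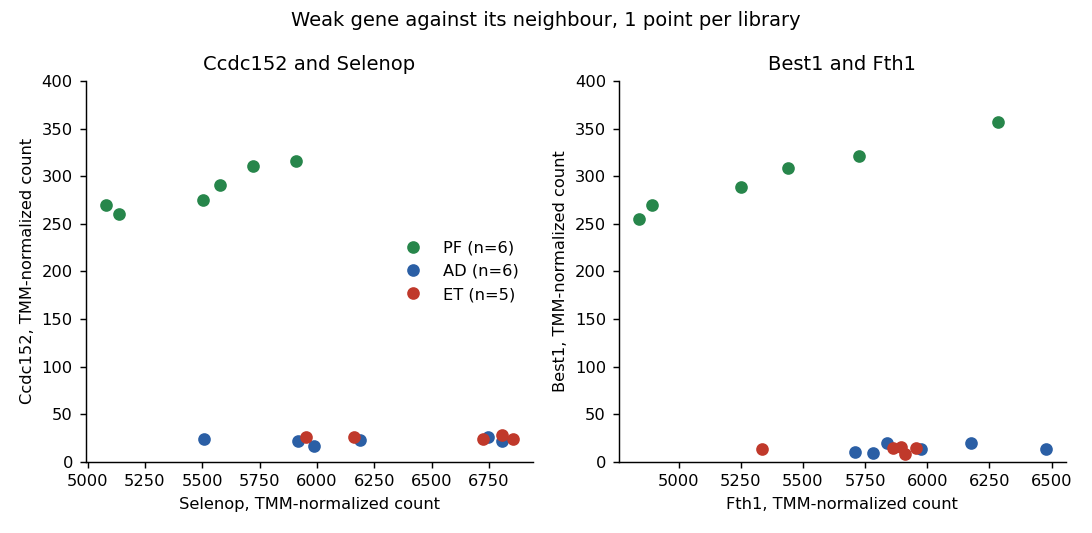
Normalized counts of the weak gene against those of its neighbour, 1 point per library, coloured by diet group. The 6 PF points climb with the neighbour in both panels, with r of 0.928 on the left and 0.990 on the right, and the ET and AD points stay below 30 counts of the weak gene. The horizontal axis does not start at 0.

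Cers1 and Gdf1, the ceramide synthase and the TGF-beta ligand on a shared transcript, had 0 counts in all 5 ET and all 6 AD libraries. In PF both genes had counts of 226, 151 and 162 in replicates 1, 2 and 3, 173 in animal 11f5, 178 in animal 11f6 and 205 in replicate 6. The counts of the pair were identical in each PF library. The PF mean was 181 ± 25.2 normalized counts (SD, n = 6) for either gene. Against a floor of 3 fragments in each library at 0, this was at least 59.5-fold higher in PF than in ET and at least 59.0-fold higher than in AD. These bounds cover counting error only, and not how fragments of overlapping genes were counted, which was not tested.

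Asnsd1 and Asdurf showed the same pattern at a lower level. Both were at 0 in all ET and AD libraries. In PF both had counts of 110, 114 and 92.7 in replicates 1, 2 and 3, 119 in animal 11f5, 98.0 in animal 11f6 and 99.3 in replicate 6, again identical within each library. The PF mean was 104 ± 7.12 normalized counts (SD, n = 6), at least 34.3-fold higher than in ET and at least 34.0-fold higher than in AD, for counting error only. Because the counts are identical, the table holds 1 measurement for each of these pairs and cannot tell its genes apart.

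Identical counts were looked for over the whole table, with a tolerance of 0.01. Among genes with at least 10 counts in every PF library, 4 genes had the same counts as another gene in all 6 PF libraries, and these were Cers1, Gdf1, Asnsd1 and Asdurf. The same search over the ET libraries found 0 genes and over the AD libraries 0 genes. With a minimum of 1 count, the search found 4 genes in PF, 20 in ET and 0 in AD. Counts above 0 in all 6 PF libraries together with 0 in all 11 others were found for 98 genes, and 31 of these had at least 10 counts in every PF library, the 4 bicistronic genes among them. The reverse pattern, 0 in all PF libraries and above 0 in all others, was found for 0 genes. The authors' methods let a fragment count for several features, and neither the strand setting nor whether all diet groups were counted with the same settings is given in the sources used here. Counts of genes that overlap, and each difference between PF and the other diets in them, are therefore uncertain, and the part of these settings was not tested.

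In the study's call rule (adjusted p below 0.01 and absolute log2 fold change above 1.5, here with edgeR's quasi-likelihood test on the 14 libraries), 6 of the 8 genes were called lower in ET than in PF, where 2.13% of 16068 genes tested were. They were Ccdc152, Best1 and the 4 bicistronic genes. The same 6 were called higher in PF than in AD, where 2.02% of 15960 genes were. Nothing is read from these counts, since the genes were chosen with both contrasts known and both use the PF libraries. The log2 fold change of ET against PF was -3.49 for Ccdc152 (SE 0.09) and -4.59 for Best1 (SE 0.15), beside 0.21 for Selenop (SE 0.07) and 0.06 for Fth1 (SE 0.08). For PF against AD it was 3.76 for Ccdc152 (SE 0.10) and 4.41 for Best1 (SE 0.15), beside -0.18 for Selenop (SE 0.06) and -0.13 for Fth1 (SE 0.07). In ET against AD, 4 of the 8 genes had counts enough to be tested and 0 were called by edgeR or DESeq2, where 0.0127% of 15749 genes were. By edgeR, 0 of the 4 had an unadjusted p below 0.05 there, beside 432 of 15749 genes. The log2 fold change of ET against AD was 0.27 for Ccdc152 (SE 0.14), 0.02 for Selenop (SE 0.07), -0.18 for Best1 (SE 0.25) and -0.08 for Fth1 (SE 0.06). Among the genes not called, Selenop had an edgeR unadjusted p below 0.05 in both contrasts with PF. Every PF library exceeded every ET and AD library for 6 of the 8 genes, against 3.51% of 16181 genes. Nothing is read from this share either, for the same reason. The 4 bicistronic genes passed the filter on low counts only through PF, where alone they had counts, and each pair is 1 measurement.

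**Figure D4:**
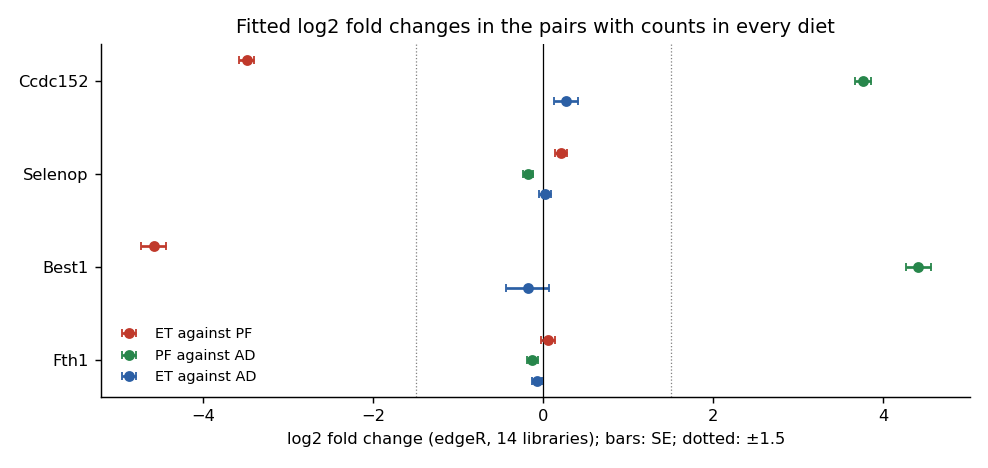
Fitted log2 fold changes of the 4 genes with counts in every diet, over the 14 libraries, with bars of 1 SE and dotted lines at the call limit of 1.5. Ccdc152 and Best1 lie past the limit in both contrasts with PF and near 0 in ET against AD, and Selenop and Fth1 lie near 0 in all 3.

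The arrangement of genes was then compared over the whole table, with the 8 genes left out. By name, 28874 of 34322 genes (84.1%) were found in the GRCr8 list. Of the 8157 genes tested whose span overlapped no other gene, 0.331% were called lower in ET than in PF. Of 586 genes overlapping a gene on the same strand, 5.12% were called, and of 3492 overlapping a gene on the opposite strand, 3.61%. It was 2.14% of 2712 genes whose overlap had no strand given and 8.63% of 1113 genes not found in the list. The share was 28.5% (110 of 386) where the gene on the opposite strand had at least 10 times the mean count, the arrangement of Ccdc152 with Selenop, and 10% (4 of 40) where a gene on the same strand had. The share over all 16060 genes was 2.10%. For PF against AD the shares were 0.320% without overlap and 26.1% for the genes with a far more abundant gene on the opposite strand. With such a gene on the same strand it was 5.41% (2 of 37). Many of these genes passed the filter on low counts only through the PF libraries, where they are high, which raises such shares. Among the genes that also had counts enough to be tested in ET against AD, a restriction added after the values were seen, 7.53% (21 of 279) with the far more abundant opposite gene and 0.0743% of 8076 without overlap were called in ET against PF. For PF against AD these were 7.17% of 279 and 0.0496% of 8063. The restriction was applied to these classes only, and the other shares remain without it. A class with a far more abundant neighbour is set by a gene's own low count relative to that neighbour. Its level may thus differ from that of the other classes, and no share matched for level was computed. These shares are descriptions, since genes that overlap are not independent and the list is of another build.

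**Figure D5:**
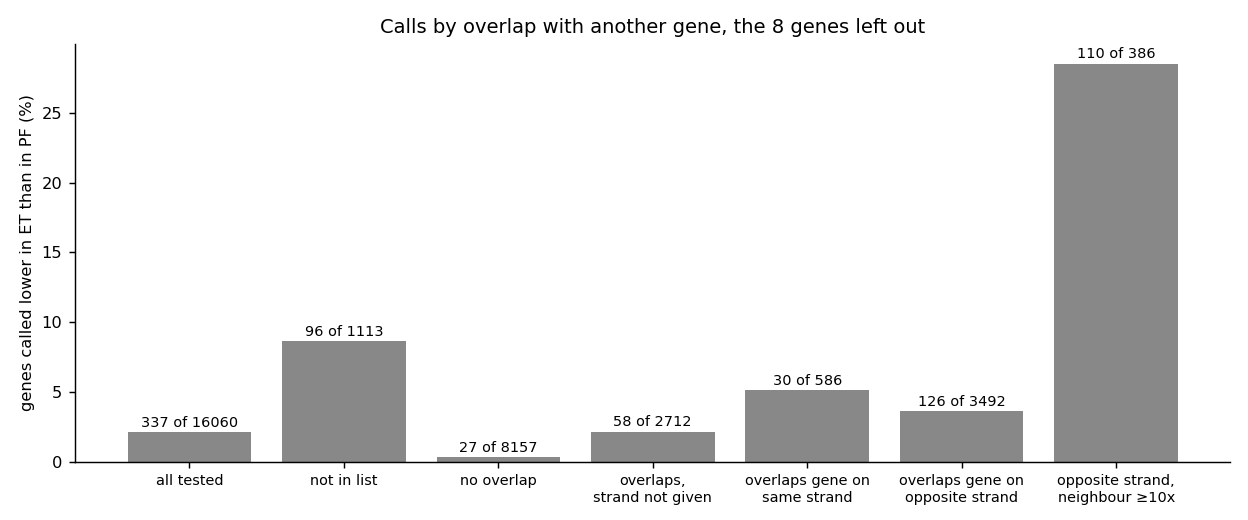
Share of tested genes called lower in ET than in PF, in percent, by whether the gene is in the GRCr8 list and overlaps another gene there, with the 8 genes left out. Numbers over the bars give called genes of genes tested, including those with counts enough only in PF. The tallest bar, 28.5%, is for genes that overlap a gene on the opposite strand with at least 10 times their mean count. The classes were not matched for level.

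Sex and side of the brain were not used to choose the genes, so they were tested with diet as a covariate. Between males and females among the ET and PF libraries of the 14, 0 of the 8 genes were called by edgeR or DESeq2, where 0.0311% of 16068 genes were. By edgeR, 0 of the 8 had an unadjusted p below 0.05, beside 301 of 16068 genes. The log2 fold changes of males against females ran from 0.02 for Selenop (SE 0.07) to 0.09 for Fth1 (SE 0.08), with adjusted p = 1 by edgeR's quasi-likelihood test. For the 4 bicistronic genes, which are at 0 outside PF, both this comparison and that of the sides rest on the 5 PF libraries among the 14 alone. Between right and left hippocampus in PF and AD, 0 of 8 were called by either tool, where 0% of 16291 genes were. By edgeR, 3 of 8 had an unadjusted p below 0.05, beside 380 of 16291 genes, and these 3 include both Cers1 and Gdf1. Cers1 and Gdf1, which are 1 measurement, had a log2 fold change of 0.35 for right against left (SE 0.12, edgeR unadjusted p = 0.0243 and DESeq2 unadjusted p = 0.0662, adjusted p = 1 in both). Ccdc152 had a log2 fold change of 0.19 (SE 0.08, edgeR unadjusted p = 0.0385 and DESeq2 unadjusted p = 0.163, adjusted p = 1 in both). Asnsd1 and Asdurf had a value of -0.11 (SE 0.14).

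Other genes of the same pathways came from lists of the proteins' partners and relatives, and their counts stand beside the 2.13% and 2.02% of all genes called in the contrasts with PF. Of 29 tested genes of selenoproteins and selenium incorporation, 0 were called in either contrast with PF, and their median log2 fold change of ET against PF was 0.02, beside 0.01 over all genes. The most abundant, the small antioxidant Selenow, had 4211 normalized counts in ET, 4035 in PF and 4424 in AD, and the endoplasmic reticulum protein Selenot had 4168, 4010 and 3989. Selenoo, named after its values were seen, had 151 ± 6.01, 213 ± 11.2 and 144 ± 7.98 normalized counts in ET, PF and AD (SD). Its log2 fold changes of -0.51 for ET against PF (SE 0.07, edgeR adjusted p = 0.00118) and 0.58 for PF against AD (SE 0.07, edgeR adjusted p = 8.48e-05) passed the p but not the fold limit. Of 13 tested genes of iron storage and transport, 0 were called. Transferrin (Tf), the iron carrier that oligodendrocytes make, was the most abundant, at 10281 in ET, 5473 in PF and 8745 in AD, with a log2 fold change of 0.73 for ET against PF (SE 0.14) that lay under the limit of 1.5. The ferritin cargo receptor Ncoa4 had 1870, 1785 and 1860. The RNA and iron binding protein Pcbp2, also named after its values were seen, had a log2 fold change of 0.35 for PF against AD (SE 0.06, edgeR adjusted p = 0.00268), under the fold limit. Of 17 tested genes of ceramide synthesis, 0 were called. The glucosylceramide synthase Ugcg had 1880, 1846 and 1894 normalized counts in ET, PF and AD, and the acid sphingomyelinase Smpd1 had 1662, 1493 and 1634.

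Of 6 tested genes of the TGF-beta superfamily and its signalling, 1 was called lower in ET than in PF and higher in PF than in AD. It was Foxh1, a transcription factor of Nodal signalling, with 0.406 normalized counts in ET, 145 in PF and 0.306 in AD. It passed the filter on low counts only through PF, where it is high, so its call is a description and no support is drawn from it. The activin receptor Acvr2a, named after its values were seen, had a log2 fold change of 0.69 for PF against AD (SE 0.12, edgeR adjusted p = 0.00454), under the fold limit. In the GRCr8 list Foxh1 overlaps another gene with 77.7 times its mean count. Of 3 tested genes of asparagine synthesis 0 were called, with the stress transcription factor Atf4 at 2073, 1973 and 1809 normalized counts and the asparaginase Asrgl1 at 2060, 2147 and 2112. Of 10 tested genes of the URI1 prefoldin-like complex, which contains Asdurf, 0 were called, with the prefoldin subunit Pfdn2 at 795, 795 and 784 and the RNA polymerase subunit Polr2e at 576, 565 and 620. The 3 other bestrophins (Best2, Best3 and Best4) were too low to be tested, at 8.73 normalized counts or less in each diet mean. In ET against AD, 0 genes of these lists were called, and 0 had an unadjusted p below 0.05.

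The genes whose pattern was most like that of each gene were sought among 16181 genes, by Pearson's r of log2 normalized counts over the 14 libraries. Since the diets form separate clusters, these values describe likeness only. For Cers1 and Gdf1 they were each other (r = 1), then Mrpl53 and Bricd5 (both r = 1.00). For Asnsd1 and Asdurf they were each other (r = 1), then LOC688754 and Ugt1a5 (both r = 1.00). Ccdc152 was closest to LOC108348727, LOC102552138 and Cnfn (all r = 0.997), and Best1 to Serhl2 (r = 0.994), Cpne1 (r = 0.992) and LOC120100873 (r = 0.991). The abundant neighbours had less close matches, which were Tmbim1 (r = 0.938), Fzd10 (r = 0.910) and Tmem117 (r = 0.909) for Selenop, and Tmem160 (r = 0.915), Nudt3 (r = 0.907) and Mapk8ip1 (r = 0.905) for Fth1.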

How the data were processed

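RNA of 17 hippocampi was sequenced as stranded, paired-end mRNA libraries. The authors mapped the reads to mRatBN7.2 with Bowtie2 2.4.2 and counted fragments on exons with featureCounts 2.0.1, letting a read count for more than 1 feature. The strand setting and the annotation release are not given in the sources used here. The table the authors deposited holds expected counts, which are averages of raw fragment counts over 3 technical replicates, so they are not always whole.

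Samples were grouped from the labels. For 2 PF males, the labels do not tell which column is which replicate, so their animal names are used. The members and gene lists were chosen with earlier results of these data known. No pair of libraries of 1 diet was alike within sampling noise (smallest chi-square per gene 7.90 over 40 pairs). Counts were rounded, filtered with filterByExpr, scaled by TMM and tested in edgeR 4.0.16 (quasi-likelihood, under R 4.3.3) with Benjamini-Hochberg adjustment over all genes tested, in the study's final 14 libraries. A call needed an adjusted p under 0.01 and a log2 fold change beyond 1.5 in size. The SE is the absolute log2 fold change over the square root of F. Ratios used all 17 libraries, correlations within a diet all 6 PF or all 6 AD libraries, and the search for similar genes the final 14. Of 8 correlations planned, 4 could be computed, since the bicistronic pairs were identical in PF and at 0 in AD. Named genes were the 8 members, the 3 most similar genes of each, and of each list the called genes or, where 0 were called, the 2 most abundant, with other known pairs and cell type markers. Genes outside this rule are said to be named after their values were seen. Some listed genes are not reported here. Gene arrangement came from the RefSeq list of GRCr8. Tested on simulated ET against PF counts with 200 changed genes, edgeR recovered 200 with 0 false calls among 16065 genes. The changed genes were well counted with large folds, a single dispersion and no litter effect. The simulation thus checks the code and does not cover weak genes or differences between litters. Alternatives were DESeq2 1.42.0, median-of-ratios scaling, no filter, sums of technical replicates, all 17 libraries, sex as a covariate, 1 fit of the 3 diets, a lower fold limit, the replicate number as a block, and leaving out each library. For ratios and correlations they were other pseudocounts, library-total scaling, no log and the final 14.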

Additional observations from a re-analysis of the deposited data

Results flagged for a closer look

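Of 22 groups of 5 or 6 libraries examined among the 8 genes and the 2 ratios, 2 held a library far from the others of its group by Dixon's test, where chance flags about 1 in 20. Fth1 was lowest in ET replicate 3, at 5336 normalized counts, against 5864 to 5955 in the other ET libraries. The ratio of Best1 to Fth1 was lowest in ET replicate 4, at 0.142%, against 0.237% to 0.268% in the other ET libraries.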

How the results depend on the processing

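The number of the 8 genes called was the same as in the report under every alternative run: 6 for ET against PF, 6 for PF against AD, 0 for ET against AD, 0 for males against females and 0 for right against left. With the replicate block the counts were also 6, 6 and 0. Same-numbered libraries of different diets did not deviate together (mean r 0.03 over 9 pairs, from -0.19 to 0.58, against -0.01 over 47 other pairs), so the numbers do not pair them. That fit, which also leaves out PF animal 11f5 because it has no replicate number, called 194 genes lower in ET than in PF over all genes, against 343 in the report and 322 without that library and without the block. The mean log2 ratios of the pairs moved by less than 1 SD under every pseudocount and set of libraries. Leaving out single libraries, r of Ccdc152 with Selenop in PF ran from 0.883 to 0.968 and lost its call without PF replicate 2 or PF replicate 6. In AD it ran from -0.175 to 0.605 and turned negative without AD replicate 3. Uncalled log2 fold changes of males against females crossed 0 when single libraries were left out, from -0.0103 to 0.112 for Ccdc152, -0.0201 to 0.0623 for Selenop, -0.0799 to 0.141 for Best1, -0.0490 to 0.246 for Cers1 and Gdf1, and -0.0709 to 0.174 for Asnsd1 and Asdurf, and with all libraries of the 17 they were -0.00842 for Ccdc152 and -0.0149 for Best1. Among uncalled diet values, Fth1 in ET against PF was -0.000759 with the block, and Selenop in ET against AD ran from -0.00796 to 0.0759. For right against left, Fth1 ran from -0.0263 to 0.139. Limiting the classes of overlapping genes to those also tested in ET against AD took the share with a far more abundant opposite gene from 28.5% to 7.53% in ET against PF. The other causes were not tested. Depth limits the weak genes: ET and AD held 8.67 to 29.3 fragments of Best1 or Ccdc152 a library, averaged over 3 technical replicates, whose sums set the counting errors given above.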

Other observations

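Snurf and Snrpn, imprinted genes that share a bicistronic transcript, offer another such pair in the table, and Snrpn was known from the study's lists. Snrpn was at 25.9 ± 2.53 normalized counts in ET (SD, n = 5), 211 ± 12.9 in PF (SD, n = 6) and 26.7 ± 6.52 in AD (SD, n = 6), and was called lower in ET than in PF and higher in PF than in AD (log2 fold changes -3.01 and 2.99). Snurf was at 85.4 ± 8.49, 257 ± 13.1 and 97.2 ± 9.48 and was called in ET against PF (-1.57) but not in PF against AD, where the log2 fold change of 1.41 lay under the limit. The count of Snurf minus that of Snrpn was 43.7 to 73.7 in ET, 25 to 66.3 in PF and 57.7 to 107 in AD, so the ranges of the difference overlapped, while the counts of both genes in PF did not overlap those in ET or AD.

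Other known neighbours or overlapping pairs were not called in either contrast with PF. The clock repressor Nr1d1, on the strand opposite the thyroid hormone receptor gene Thra, had 993 ± 152 normalized counts in ET, 1213 ± 101 in PF and 1066 ± 113 in AD (SD). Nudt6, antisense to the growth factor gene Fgf2, had 144 ± 16.3, 166 ± 13.7 and 146 ± 10.1.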
